A study of Mus musculus with 8 samples.

Results

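The 9 genes described here encode Ras proteins and the proteins that switch them off, switch them on or carry their signal, and were taken by symbol from a count table of 50600 mouse genes. They are 4 Ras GTPase-activating proteins (*Nf1*, *Rasa1*, *Rasa2* and *Rasal2*), 3 Ras GTPases (*Hras*, *Nras* and *Rras*), the exchange factor *Sos1* and the kinase *Map2k1*. All 9 were found, and all 9 passed the filter on low counts, as did 14497 of the 50600 genes. RNA was sequenced from NF1-MET cells and from NF1-MET;sgP53 cells, each given vehicle (DMSO) or 100 nM capmatinib, a MET kinase inhibitor, for 24 h, with 2 libraries in each of the 4 groups. Both lines descend from a mouse malignant peripheral nerve sheath tumor (MPNST) that carried Plp-creERT tg/+, a tamoxifen-inducible Cre, together with Nf1 fl/ko (1 floxed and 1 null allele) and the Cre-dependent transgene lox-stop-loxMET tg/+, and that had amplified *Met*. The NF1-MET line has also lost *Cdkn2a* by spontaneous deletion. All 4 groups share these changes, and the labels give NF1-MET as WT and NF1-MET;sgP53 as Trp53 KO. The NF1-MET;sgP53 cells were made by lentiviral delivery of Cas9 and a guide to exon 4 of *Trp53* followed by puromycin selection, so each genotype was 1 line, and other differences between the lines and p53 loss cannot be told apart. The table's column names for the NF1-MET libraries contain the letters EV and the study's methods describe NF1-MET cells with an empty vector, but no source used here states that these libraries came from them. Cells were plated in 6-well plates and treated in duplicate, and although the labels call the duplicates biological replicates, nothing says that they came from separate cultures, so that p-values measure only the spread between these samples, which may be technical.

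Ras proteins are small GTPases at the inner face of the plasma membrane. Exchange factors such as SOS1, which is brought to activated receptor tyrosine kinases such as MET by the adaptor GRB2, load them with GTP, and GTPase-activating proteins (RasGAPs) return them to the GDP-bound state. Neurofibromin, the product of *Nf1*, is the RasGAP lost in neurofibromatosis type 1 and in MPNSTs arising in it, and SPRED proteins bring it to the membrane. GTP-bound Ras recruits RAF kinases, which phosphorylate MEK1 (*Map2k1*) and MEK2, which in turn phosphorylate ERK.

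The libraries held 30.1 M to 42.8 M counts. Levels are given as CPM, counts scaled to a common library size with TMM factors, which lay between 0.898 and 1.1. *Trp53*, the targeted gene, was at 182 and 193 CPM in NF1-MET vehicle, 126 and 129 in NF1-MET capmatinib, 97.5 and 100.1 in NF1-MET;sgP53 vehicle and 68 and 68.8 in NF1-MET;sgP53 capmatinib. The guide-carrying libraries, labelled Trp53 KO, were lower in either treatment, although an edited allele can still give counts. *Met*, the target of capmatinib, fell in both lines, by 0.64 ± 0.024 (SE) on the log2 scale in NF1-MET (edgeR adjusted p = 2.47e-21) and by 0.47 ± 0.029 in NF1-MET;sgP53 (edgeR adjusted p = 2.54e-12). Of the defining Schwann cell markers, *Sox10*, *Ngfr*, *S100b* and *Erbb3* stayed under 1 CPM in every library, and *Nes* lay between 427 and 473 CPM. The 5 fibroblast and smooth muscle markers summed to 3450 to 3540 CPM in NF1-MET vehicle and 4960 to 5000 in NF1-MET;sgP53 vehicle, against 24400 to 24600 and 25000 to 25200 CPM with capmatinib. The blood cell, endothelial and epithelial lists each summed to at most 1.93 CPM in any library, and *Hbb-bs* was at 0 in all 8. The share of counts from *Gm42418*, a gene that lies over ribosomal RNA sequence, ran from 1.11% to 13.1%, and its part in the results below was tested only by leaving it out.

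The promoters of the pair of members that moved most with capmatinib, *Rasa1* (lower) and *Rras* (higher), are printed here, with the exon-free part of the *Nf1* promoter beside them. Windows are the 250 bases before a RefSeq start site on GRCm38.p6, on the strand of the gene. All 9 members matched, with 11 windows. *Rras* has an upstream start and a pair of neighbouring downstream starts, of which the first is shown. For *Nf1* only the 51 bases farthest from the RefSeq start are shown, because annotated exon begins after them. Capitals mark an ETS motif (CCGGAAG, or CTTCCGG on the other strand) and a TEAD motif (GGAATG).
Rasa1 promoter, chr13:85289487-85289736, minus strand: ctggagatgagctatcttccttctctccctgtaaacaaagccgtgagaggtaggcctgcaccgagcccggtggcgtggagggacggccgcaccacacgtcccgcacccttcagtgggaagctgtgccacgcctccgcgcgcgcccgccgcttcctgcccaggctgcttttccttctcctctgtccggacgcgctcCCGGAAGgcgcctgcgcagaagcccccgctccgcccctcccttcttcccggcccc
Rras promoter, upstream start, chr7:45017692-45017941, plus strand: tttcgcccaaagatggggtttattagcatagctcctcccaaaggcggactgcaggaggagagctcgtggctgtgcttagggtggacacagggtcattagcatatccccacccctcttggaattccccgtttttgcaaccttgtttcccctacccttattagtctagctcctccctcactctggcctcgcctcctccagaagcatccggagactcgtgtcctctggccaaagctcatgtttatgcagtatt
Rras promoter, downstream start, chr7:45019220-45019469, plus strand: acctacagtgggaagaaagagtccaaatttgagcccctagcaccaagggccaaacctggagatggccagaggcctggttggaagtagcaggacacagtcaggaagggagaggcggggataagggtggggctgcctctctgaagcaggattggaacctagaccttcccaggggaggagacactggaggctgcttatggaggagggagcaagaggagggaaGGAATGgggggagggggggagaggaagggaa
Nf1 promoter, chr11:79339642-79339692, plus strand: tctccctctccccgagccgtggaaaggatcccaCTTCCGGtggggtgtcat
Both strands of each window were searched. The ETS motif was found once in the windows of *Rasa1* and *Nf1* and in none of the windows of the other members, and 6.91% of all 32851 promoter windows of the same length hold it. The TEAD motif was found before both downstream *Rras* starts, whose windows overlap, and not before the upstream one, and 12.6% of all windows hold it. *Rasa1* also held 1 GC box (GGGCGG), a motif in 32.7% of all windows. The AP-1 motif (TGANTCA) and the CArG box of serum response factor were in no window of the members, against 6.75% and 1.47% of all windows. The *Rasa1* window was 68.8% G and C, and the windows before the upstream and downstream *Rras* starts were 53.2% and 58.8%, beside a median of 52.4% over all windows.

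The first question was how MET inhibition changed the 9 genes in NF1-MET cells. *Rras* rose 2.52-fold and *Rasa1* fell 2.38-fold, and the other members moved by at most 1.21-fold in either direction. Of the 9 genes, 7 passed the threshold (edgeR quasi-likelihood test, Benjamini-Hochberg adjusted p under 0.05), 3 higher and 4 lower, in a comparison in which 70.2% of all genes tested passed it, 35.5% higher and 34.7% lower. Scaling by library totals in place of TMM factors moved the median of all genes from 0.002 to -0.18 on the log2 scale and the split of all called genes from 5140 higher and 5029 lower to 3508 and 6381. It left 1 member called higher and 5 lower, and *Rasal2*, *Hras* and *Nras* were then at -0.44, -0.35 and -0.33 on the log2 scale, beyond their values given below. The 4 libraries of the groups did not overlap for any of the 9 genes, as for 83.5% of all genes tested. In NF1-MET;sgP53 cells 7 of 9 again passed, 3 higher and 4 lower, where 67.6% of all genes did, 34.2% higher and 33.4% lower. Groups did not overlap for any of the 9, beside 82.5% of all genes. With library totals the median of all genes there moved from 0.0049 to -0.12, the split of called genes from 4963 higher and 4841 lower to 3260 and 4933, and that of the members to 1 higher and 4 lower, with *Rasal2*, *Hras* and *Nras* at -0.31, -0.27 and -0.30. Over the members the median absolute log2 fold change came to 0.25 in NF1-MET, beside 0.41 over all genes tested, and to 0.17 in the line with the guide, beside 0.40. These are bulk libraries, in which a change in the share of cells and a change in the RNA of each cell cannot be told apart.

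**Figure D1:**
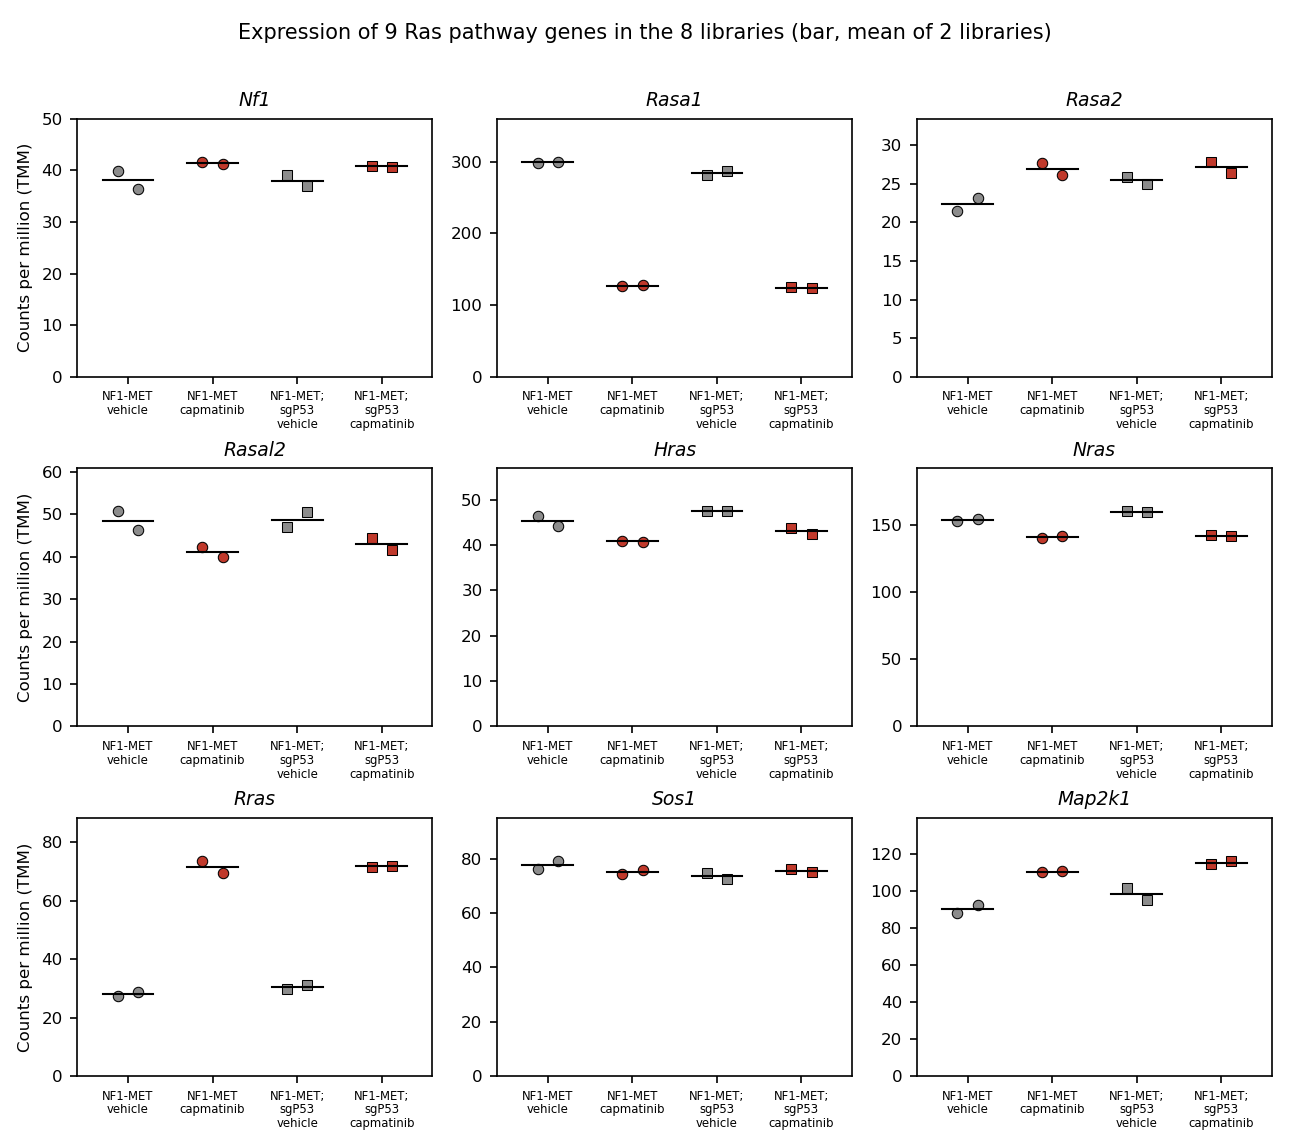
CPM of the 9 genes in each library (y axis, from 0; circles NF1-MET, squares NF1-MET;sgP53; grey vehicle, red capmatinib), with a bar at the mean of the 2 libraries of a group. *Rasa1* lies at 282 to 299.9 CPM in vehicle and 123 to 128 with capmatinib, and *Rras* at 27.2 to 31 and 69.3 to 73.6, while the groups of the other 7 genes lie close together.

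*Nf1* (ENSMUSG00000020716, mm10 chr11:79339693-79581612, plus strand), the gene of neurofibromin, was at 39.9 and 36.4 CPM in NF1-MET vehicle and 41.7 and 41.3 in NF1-MET capmatinib. The NF1-MET;sgP53 vehicle libraries held 39 and 37 CPM and those with capmatinib 40.9 and 40.7. All 4 capmatinib libraries were above all 4 vehicle libraries, by a margin smaller than the gap within the vehicle pair of NF1-MET. The log2 fold change was 0.10 ± 0.048 (SE) in NF1-MET (edgeR adjusted p = 0.0563) and 0.10 ± 0.045 in NF1-MET;sgP53 (edgeR adjusted p = 0.0493), with 95% intervals of 0.0052 to 0.20 and 0.009 to 0.20. The call in NF1-MET;sgP53 held in 4 of 17 alternatives, with adjusted p between 0.0346 and 0.89. It was lost, for example, without NF1-MET;sgP53 vehicle replicate 2 (adjusted p = 0.355) or capmatinib replicate 1 (0.141) or 2 (0.0712), and without either NF1-MET capmatinib library (0.0647 and 0.0649), whereas leaving out NF1-MET vehicle replicate 1 raised the value in NF1-MET to 0.19 (adjusted p = 0.005, range 0.005 to 0.409). In NF1-MET the change also passed in 6 other alternatives, 3 of them without 1 NF1-MET;sgP53 library (vehicle replicate 1 or 2, adjusted p = 0.0275 each, or capmatinib replicate 1, 0.0324). With library totals the sign turned in both lines (-0.08 and -0.02), so no direction is given for *Nf1*. The counts cover the whole gene of 60 exon blocks and 15850 bases of exon, and do not tell the floxed or null allele from an intact one.

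*Rasa1* (ENSMUSG00000021549, chr13:85214780-85289130, minus strand) encodes p120 RasGAP, which binds activated receptor tyrosine kinases through SH2 domains, and was the member with the highest counts in the vehicle libraries; in the capmatinib libraries *Nras* had more. It was at 299 and 299.9 CPM in NF1-MET vehicle and 127 and 128 in NF1-MET capmatinib. Its levels in NF1-MET;sgP53 were 282 and 288 CPM in vehicle, against 125 and 123 after capmatinib. Treated and untreated libraries stood far apart, and the replicates of each group within 6 CPM of each other. It fell by 1.25 ± 0.026 (SE) on the log2 scale in NF1-MET (edgeR adjusted p = 1.46e-28) and by 1.2 ± 0.031 in NF1-MET;sgP53 (edgeR adjusted p = 5.94e-19). Over 17 alternatives the value stayed between -1.44 and -1.23 in NF1-MET and between -1.32 and -1.17 in NF1-MET;sgP53, called in each. Among all genes tested, 12.9% changed by more in NF1-MET, in either direction, as did 12.4% in NF1-MET;sgP53. Its exons overlap those of *Ccnh* on the opposite strand by 12 bases (0.164% of its exon length), and whether reads were counted by strand is not given in the sources used here.

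*Rasa2* (ENSMUSG00000032413, chr9:96539300-96631617, minus strand), which encodes a RasGAP of the GAP1 family, was at 21.4 and 23.2 CPM in NF1-MET vehicle and 27.7 and 26.2 in NF1-MET capmatinib. Cells with the *Trp53* guide had 25.9 and 25 CPM in vehicle and 27.9 and 26.4 with capmatinib. The NF1-MET vehicle libraries were the lowest 2 of the 8. It rose in NF1-MET by 0.25 ± 0.06 (SE) on the log2 scale (edgeR adjusted p = 0.000432), and the change was 0.09 ± 0.056 in NF1-MET;sgP53 (edgeR adjusted p = 0.151, 95% interval -0.02 to 0.21). The rise in NF1-MET was 0.06 with library totals (adjusted p = 0.463, range over 17 alternatives 0.000109 to 0.463) and was called in the other 16.

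*Rasal2* (ENSMUSG00000070565, chr1:157135182-157412595, minus strand), which encodes a RasGAP, was at 50.7 and 46.3 CPM in NF1-MET vehicle and 42.4 and 39.9 in NF1-MET capmatinib. The NF1-MET;sgP53 vehicle libraries held 46.9 and 50.5 CPM and those with capmatinib 44.5 and 41.6. The highest capmatinib library was below the lowest vehicle library. It fell by 0.26 ± 0.047 (SE) on the log2 scale in NF1-MET (edgeR adjusted p = 1.59e-05) and by 0.18 ± 0.046 in NF1-MET;sgP53 (edgeR adjusted p = 0.00153). The call in NF1-MET;sgP53 was lost without its vehicle replicate 2 (-0.12, adjusted p = 0.0749) or its capmatinib replicate 2 (-0.11, 0.0989) and held in the other 15 alternatives (range 0.00121 to 0.0989). Of its exon length, 1.78% overlaps *2810025M15Rik* on the opposite strand.

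*Hras* (ENSMUSG00000025499, chr7:141189105-141194005, minus strand) was at 46.5 and 44.2 CPM in NF1-MET vehicle and 40.9 and 40.7 in NF1-MET capmatinib. Both NF1-MET;sgP53 vehicle libraries held 47.4 CPM and those with capmatinib 43.7 and 42.3. Every capmatinib library lay below every vehicle library. It fell by 0.17 ± 0.045 (SE) on the log2 scale in NF1-MET (edgeR adjusted p = 0.00136) and by 0.14 ± 0.041 in NF1-MET;sgP53 (edgeR adjusted p = 0.00463). The call was lost in NF1-MET without vehicle replicate 1 (-0.11, adjusted p = 0.0524, range 5.62e-07 to 0.0524), and in NF1-MET;sgP53 without capmatinib replicate 2 (-0.10, adjusted p = 0.0992) and in DESeq2's Wald test (-0.15, adjusted p = 0.0508, range 0.00344 to 0.0992).

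*Nras* (ENSMUSG00000027852, chr3:103058285-103067914, plus strand) was at 153 and 155 CPM in NF1-MET vehicle and 140.3 and 142 in NF1-MET capmatinib. In the line with the guide it stood at 160.1 and 159.8 CPM in vehicle and at 142 in each capmatinib library. The replicates lay within 2 CPM of each other and the treatments more than 10 CPM apart. It fell by 0.14 ± 0.028 (SE) on the log2 scale in NF1-MET (edgeR adjusted p = 4.38e-05) and by 0.17 ± 0.032 in NF1-MET;sgP53 (edgeR adjusted p = 5.11e-05), and was called in all 17 alternatives in both lines.

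*Rras* (ENSMUSG00000038387, chr7:45017961-45021647, plus strand) encodes R-Ras, a relative of the classical Ras proteins known for its part in integrin-mediated adhesion and in vascular smooth muscle. It was at 27.2 and 28.7 CPM in NF1-MET vehicle and 73.6 and 69.3 in NF1-MET capmatinib. Its levels in NF1-MET;sgP53 were 29.7 and 31 CPM in vehicle, against 71.6 and 71.9 after capmatinib. The lowest capmatinib library was above the highest vehicle library by more than the whole vehicle level. It rose by 1.33 ± 0.045 (SE) on the log2 scale in NF1-MET (edgeR adjusted p = 1.38e-22) and by 1.24 ± 0.04 in NF1-MET;sgP53 (edgeR adjusted p = 2.69e-17), with 1.15 to 1.40 and 1.12 to 1.27 over 17 alternatives, called in each. Of all genes tested, 8.16% rose by more in NF1-MET, as did 8.04% in NF1-MET;sgP53. The 5 fibroblast and smooth muscle markers moved with the same libraries, as given above, and 4 of the 5 rose in both lines (*Col1a1* by 2.64 and 2.21 and *Acta2* by 4.17 and 3.19 on the log2 scale), while *Pdgfra* fell by 0.38 and 0.32. Their part in the *Rras* result was not tested.

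*Sos1* (ENSMUSG00000024241, chr17:80393751-80480453, minus strand), the exchange factor, was at 76.5 and 79.3 CPM in NF1-MET vehicle and 74.5 and 76.1 in NF1-MET capmatinib. Cells with the *Trp53* guide had 74.7 and 72.6 CPM in vehicle and 76.3 and 75.1 with capmatinib. All 8 libraries lay within 7 CPM. The log2 fold change was -0.07 ± 0.034 (SE) in NF1-MET (edgeR adjusted p = 0.0875, 95% interval -0.13 to 0.004) and 0.04 ± 0.033 in NF1-MET;sgP53 (edgeR adjusted p = 0.291, interval -0.03 to 0.11). With library totals it was -0.25 in NF1-MET (adjusted p = 7.34e-05, range over 17 alternatives 7.34e-05 to 0.65), the one alternative in which it passed.

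*Map2k1* (ENSMUSG00000004936, chr9:64185770-64253631, minus strand), which encodes MEK1, was at 88.3 and 92.5 CPM in NF1-MET vehicle and 110.3 and 111 in NF1-MET capmatinib. The NF1-MET;sgP53 vehicle libraries held 102 and 95.4 CPM and those with capmatinib 115 and 117. The vehicle libraries ended below where the capmatinib libraries began. It rose by 0.27 ± 0.031 (SE) on the log2 scale in NF1-MET (edgeR adjusted p = 1.86e-09) and by 0.23 ± 0.038 in NF1-MET;sgP53 (edgeR adjusted p = 1.21e-05). Library totals gave 0.09 (adjusted p = 0.177, range 4.02e-16 to 0.177) and 0.11 (adjusted p = 0.396, range 1.5e-06 to 0.396), and the other 16 alternatives in each line kept the call.

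**Figure D2:**
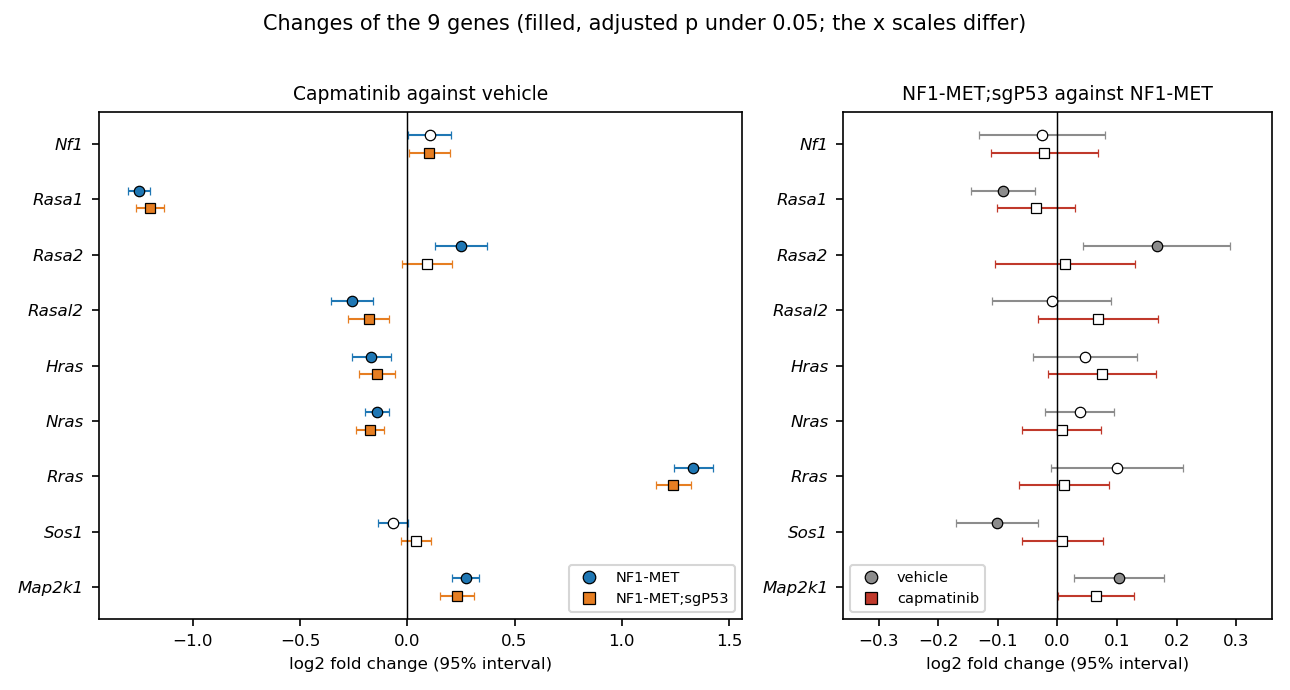
Log2 fold changes of the 9 genes with 95% intervals (x axes, on different scales), for capmatinib against vehicle in each line (left) and for NF1-MET;sgP53 against NF1-MET in each treatment (right), filled where the adjusted p was under 0.05. On the left *Rasa1* lies at -1.25 and -1.2 and *Rras* at 1.33 and 1.24, far outside the others, and on the right every value lies between -0.10 and 0.17.

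The number of members called in NF1-MET;sgP53 ran from 4 to 7 when single libraries were left out, and the count of 4 (*Rasa1*, *Nras*, *Rras* and *Map2k1*) came without its capmatinib replicate 2. In NF1-MET it ran from 7 to 8.

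The next question was whether the 9 genes differed between the lines. In vehicle, 4 of 9 passed the threshold, 2 higher in NF1-MET;sgP53 and 2 lower, where 23.2% of all genes tested did, 10.9% higher and 12.3% lower. With library totals the split of all called genes turned from 1580 higher and 1775 lower to 1280 and 743. *Rasa2* was higher by 0.17 ± 0.059 (SE) on the log2 scale (edgeR adjusted p = 0.0476) and *Map2k1* by 0.10 ± 0.036 (edgeR adjusted p = 0.0437). *Rasa1* was lower, at -0.09 ± 0.026 (edgeR adjusted p = 0.013), and so was *Sos1*, at -0.10 ± 0.033 (edgeR adjusted p = 0.0295). Groups did not overlap for 7 of the 9 genes, beside 60.5% of all genes. None of these calls held throughout. The number of members called was 0 with library totals, 1 (*Rasa1*) in DESeq2's Wald test and without the filter, 0 without vehicle replicate 1 of either line, 2 without vehicle replicate 2 of either line or without either NF1-MET capmatinib library, and 3 and 4 without NF1-MET;sgP53 capmatinib replicates 1 and 2. The log2 fold change of *Nf1* between the lines in vehicle was -0.03 ± 0.05 (95% interval -0.13 to 0.08), and that of *Rras* was 0.10 ± 0.053 (interval -0.01 to 0.21, edgeR adjusted p = 0.196).

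In capmatinib, 0 of 9 members passed between the lines by edgeR's test and 0 by DESeq2's, beside 12.3% of all genes by edgeR's. At an unadjusted p under 0.05 there was 1, *Map2k1* (0.06 ± 0.03 SE on the log2 scale, edgeR adjusted p = 0.197). Groups did not overlap for 4 of the 9 genes, beside 52.3% of all genes. The 95% intervals of the 9 differences lay between -0.11 and 0.17. *Trp53*, by contrast, was lower by 0.94 ± 0.033 in vehicle and by 0.89 ± 0.029 in capmatinib on the log2 scale.

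The response to capmatinib itself was compared between the lines as an interaction over the 8 libraries. By edgeR's test 0 of 9 members differed and by DESeq2's 0, beside 9.71% of all genes by edgeR's, and at an unadjusted p under 0.05 there was 1, *Rasa2*. Its response was 0.17 ± 0.083 (SE) smaller on the log2 scale in NF1-MET;sgP53, at a difference of -0.17 (95% interval -0.34 to -0.0033, edgeR adjusted p = 0.218). For *Rasa1* the difference in response was 0.04 (interval -0.04 to 0.12), and for *Rras* it was -0.11 (interval -0.24 to 0.02). For *Nf1* it was -0.02 (interval -0.16 to 0.12). *Met*, whose fall was smaller in NF1-MET;sgP53 by 0.16 ± 0.036, passed the same test (edgeR adjusted p = 0.00565, range over 16 alternatives 0.000672 to 0.381), and lost it with library totals and without NF1-MET vehicle replicate 2 (0.13, adjusted p = 0.0571).

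Levels of different genes were set side by side as CPM per kb of exon. In NF1-MET vehicle *Rasa1* was the highest member at 40.9 ± 0.13 (SD, n = 2) CPM per kb, followed by *Nras* at 28.9 ± 0.23, *Map2k1* at 26.7 ± 0.88 and *Rras* at 24.9 ± 0.93. Lower stood *Hras* at 12.2 ± 0.43 and *Sos1* at 7.35 ± 0.19 CPM per kb. The lowest 3 were *Rasal2* at 3.53 ± 0.23, *Nf1* at 2.41 ± 0.16 and *Rasa2* at 1.41 ± 0.08 CPM per kb. *Map2k1* and *Rras* lay within the sum of their SDs of each other, and no other neighbours in this order did. In NF1-MET capmatinib *Rras* led at 63.7 ± 2.72 CPM per kb, before *Map2k1* at 32.6 ± 0.086, *Nras* at 26.5 ± 0.2 and *Rasa1* at 17.4 ± 0.11, and the order of the other 5 was as in vehicle. The NF1-MET;sgP53 libraries had the same order with capmatinib, with *Rras* at 64 ± 0.17 and *Rasa1* at 16.9 ± 0.15, and in vehicle *Map2k1* (29.1 ± 1.31) lay within the sum of the SDs of both *Nras* (30 ± 0.04) and *Rras* (27.1 ± 0.82). The CPM of the 9 genes summed to between 802 and 807 in the 4 vehicle libraries and to between 674 and 687 in the 4 capmatinib libraries.

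**Figure D3:**
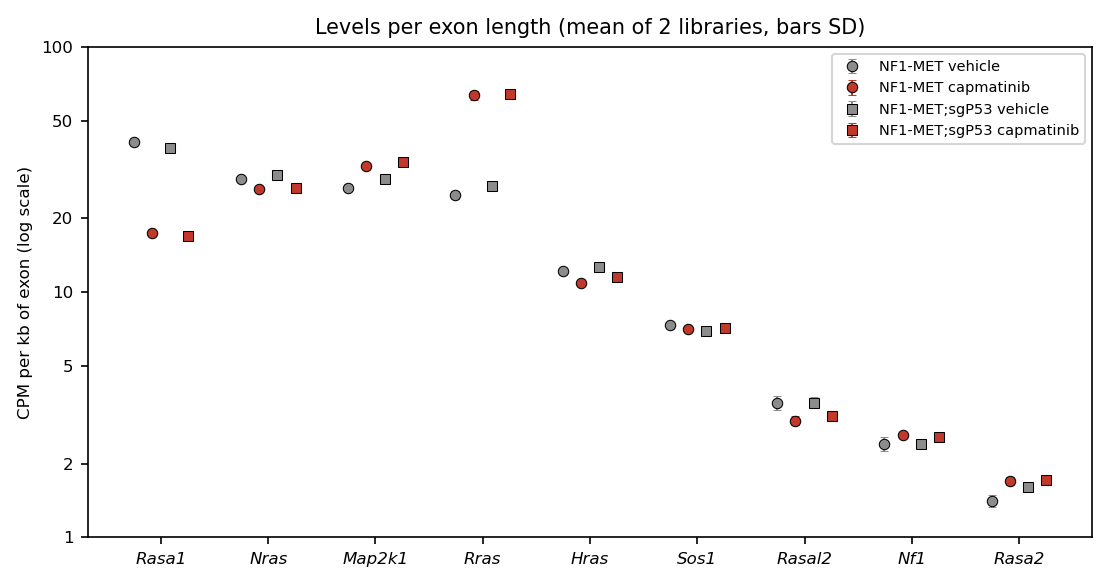
Levels of the 9 genes per exon length (y axis, CPM per kb of exon on a log scale; symbols are means of 2 libraries, bars SD; circles NF1-MET, squares NF1-MET;sgP53, grey vehicle, red capmatinib), ordered by the NF1-MET vehicle level. *Rasa1* fell from 40.9 to 17.4 and *Rras* rose from 24.9 to 63.7 CPM per kb in NF1-MET, while *Rasal2*, *Nf1* and *Rasa2* stayed between 1.41 and 3.55 in every group.

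Likeness to other genes was described by Pearson's r of log2 CPM over the 8 libraries, among 8659 genes whose mean reached 10 CPM. For *Nf1* the 3 most alike were *Atp6v0a2* (r = 0.966), *Rbl2* (0.958) and *4632415L05Rik* (0.951). For *Rras* they were *Pcolce* (r = 0.9995), *Adra1d* (0.9995) and *Prelp* (0.9994), and 565 genes had an r over 0.99 with it. The 8 points fall into 2 treatments and share their libraries and scaling, so that a rise in both lines can by itself give a high r with *Rras*.

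The rest of the pathway was followed through 7 lists holding 61 genes, of which 54 passed the filter. In NF1-MET 44 of these were called with capmatinib, 23 higher and 21 lower, and in NF1-MET;sgP53 41, 22 higher and 19 lower, shares of 81.5% and 75.9% beside the 70.2% and 67.6% of all genes. With library totals the splits were 13 higher and 27 lower, and 14 and 19. The median absolute log2 fold change of the 54 was 0.24 and 0.25, beside 0.41 and 0.40 over all genes. Of the list of other RasGAPs, 4 of 4 tested rose in both lines, where 35.5% and 34.2% of all genes tested did. They included *Dab2ip* (log2 fold change 0.94 ± 0.034 SE in NF1-MET, against 1 ± 0.035 in NF1-MET;sgP53), *Rasa3* (0.34 and 0.45) and *Rasa4* (0.33 and 0.50), and the median of the list was 0.55 and 0.58. With library totals *Rasa4* was at 0.14 in NF1-MET (adjusted p = 0.203, range over 17 alternatives 0.000566 to 0.203) and lost its call, and *Rasa3* was at 0.15. Of the RasGAP genes among the 9 members, *Rasa1* and *Rasal2* fell in both lines, *Rasa2* rose in NF1-MET (0.25, adjusted p = 0.000432) and was at 0.09 in NF1-MET;sgP53, and *Nf1* was at 0.10 in both. *Dab2ip*, which encodes a RasGAP that also binds apoptosis signalling kinases, went from 59.8 ± 2.94 (SD, n = 2) to 116 ± 1.86 CPM in NF1-MET.

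Of the 8 genes listed as neurofibromin partners and Ras output inhibitors, 6 were called in each line. In NF1-MET 5 were lower and 1 higher, and in NF1-MET;sgP53 4 were lower and 2 higher. Each count of 6 is 75% of the list, beside 70.2% and 67.6% of all genes, and 34.7% and 33.4% of all genes were called lower. Scaled by library totals, 6 were lower and 1 higher, and 4 and 1. *Spred1*, whose product brings neurofibromin to the membrane, fell from 367 ± 1.88 to 154 ± 5.22 CPM (SD, n = 2) in NF1-MET and from 285 ± 0.69 to 147 ± 3.09 CPM in NF1-MET;sgP53. Its log2 fold changes were -1.27 ± 0.026 (SE) and -0.95 ± 0.031. *Spred3* fell by 1 and 0.62, *Spred2* by 0.72 and 0.66, and *Spry4*, a Sprouty inhibitor of receptor signalling, by 0.57 and 0.25 on the log2 scale. In NF1-MET *Spry1*, named after its values were seen, was the one that rose, from 0.737 to 3.04 CPM, and in NF1-MET;sgP53 it rose from 2.01 to 4.48 CPM. Between the lines in vehicle, 5 of the 8 were called, 4 lower in NF1-MET;sgP53 and 1, *Spry1*, higher, a share of 62.5% beside 23.2% of all genes (12.3% lower and 10.9% higher). *Spred1* was lower by 0.39 ± 0.025 (SE), as were *Spred3* (by 0.43), *Spry2* (by 0.30) and *Spry4* (by 0.26).

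Among 11 other Ras family GTPases tested, 9 were called in NF1-MET, 3 higher and 6 lower, and 8 in NF1-MET;sgP53, 3 higher and 5 lower, shares of 81.8% and 72.7% beside the 70.2% and 67.6% of all genes. Scaled by library totals, the splits were 1 higher and 7 lower, and 1 and 5. *Mras* and *Rheb*, named after their values were seen, were called higher in both lines, at 0.22 and 0.23 in NF1-MET and at 0.31 and 0.13 in NF1-MET;sgP53. With library totals both lost the call: *Mras* was at 0.033 (adjusted p = 0.643, range over 17 alternatives 3.27e-09 to 0.643) and 0.19 (0.113, range 3.31e-08 to 0.113). *Rheb* was then at 0.049 (adjusted p = 0.459, range over 17 alternatives 1.6e-12 to 0.459) and 0.0088 (0.951, range 0.000679 to 0.951). *Rit1* rose by 0.97 and 0.92 on the log2 scale, and *Rala* (by 0.57 and 0.37), *Rap2b* (by 0.56 and 0.53) and *Rras2* (by 0.28 and 0.44) fell. With library totals *Rras2* fell by 0.47 in NF1-MET. Of 5 exchange factors tested, 5 and 4 were called (100% and 80%, beside the same 70.2% and 67.6% of all genes). *Rasgrf1*, an exchange factor best known from neurons, fell from 63 ± 1.15 to 11 ± 0.27 CPM (SD, n = 2) in NF1-MET and from 41.3 ± 1.42 to 9.07 ± 0.048 in NF1-MET;sgP53, log2 fold changes of -2.53 ± 0.055 (SE) and -2.19 ± 0.062. *Sos2*, the close relative of *Sos1*, rose in NF1-MET by 0.23 ± 0.053 and was at 0.02 ± 0.054 in NF1-MET;sgP53. With library totals its value in NF1-MET was 0.041 (adjusted p = 0.625, range over 17 alternatives 5.56e-05 to 0.625) and the call was lost. *Rapgef1* fell by 0.20 ± 0.034 in NF1-MET;sgP53. Over 17 alternatives its value ran from -0.32 to -0.18 there and from -0.27 to -0.058 in NF1-MET. In NF1-MET it was at -0.08 ± 0.028, a call that held in 8 of 17 alternatives (adjusted p 9.12e-06 to 0.201) and was lost when any library but NF1-MET;sgP53 capmatinib replicate 2 was left out (-0.072 to -0.058). *Rasgrp3*, named after its values were seen, went from 0.244 to 6.66 CPM in NF1-MET and from 0.187 to 6.64 in NF1-MET;sgP53.

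Of 8 receptor adaptors, 6 were called in NF1-MET, 5 of them higher, and 4 in NF1-MET;sgP53, all 4 higher. These are 75% and 50% of the list, beside 70.2% and 67.6% of all genes. Of all genes, 35.5% and 34.2% were called higher and 34.7% and 33.4% lower. *Gab1*, a docking protein for MET, rose from 20.4 ± 0.87 to 45.1 ± 0.84 CPM (SD, n = 2) in NF1-MET and from 20.6 ± 0.14 to 46.9 ± 0.43 in NF1-MET;sgP53, and *Frs2* and *Shc1* rose by 0.43 and 0.40 in NF1-MET and by 0.44 and 0.43 in NF1-MET;sgP53 on the log2 scale. Of 11 genes of the RAF, MEK and ERK kinases and their scaffolds, 10 were called in NF1-MET, 6 higher and 4 lower. In NF1-MET;sgP53 9 were called, 5 higher and 4 lower. The 2 counts are 90.9% and 81.8% of the list, beside 70.2% and 67.6% of all genes. Scaling by library totals gave 2 higher and 5 lower, and 2 and 4. *Braf*, the gene of a RAF kinase that Ras proteins recruit, rose from 37.7 ± 0.54 to 87.7 ± 0.21 CPM (SD, n = 2) in NF1-MET and from 43.6 ± 0.37 to 97.5 ± 4.23 CPM in NF1-MET;sgP53. Its log2 fold changes were 1.2 ± 0.038 (SE, edgeR adjusted p = 1.79e-23) and 1.16 ± 0.036 (edgeR adjusted p = 1.59e-17), and it was called in all 17 alternatives in both lines (1.02 to 1.23 and 1.04 to 1.22). The scaffold *Ksr1* rose by 0.51 and 0.44, and *Mapk3*, which encodes ERK1, fell by 0.29 and 0.23. With library totals *Frs2*, *Shc1* and *Ksr1* rose less in NF1-MET, by 0.24, 0.22 and 0.33, and *Mapk3* and *Map2k2* fell more, by 0.48 and 0.36. *Gab2* (0.20 and 0.33) lost its call in both lines with library totals, at 0.012 (adjusted p = 0.882, range over 17 alternatives 4.84e-05 to 0.882) and 0.20 (0.108, range 9.66e-08 to 0.108). *Ptpn11*, named after its values were seen, went from 0.09 in NF1-MET to -0.10 with library totals, so that 3 adaptors were called higher in each line there. *Map2k2*, the gene of MEK2, fell by 0.17 and 0.20, and was named after its values were seen because it stands beside *Map2k1*, which rose. Of 8 enzymes that process Ras proteins, 5 were called in NF1-MET (62.5%, beside 70.2% of all genes) and 7 in NF1-MET;sgP53 (87.5%, beside 67.6%), and the response differed between the lines for 1 of the 8, *Zdhhc9*. That call held in 7 of 16 alternatives (adjusted p 0.0096 to 0.771) and was lost with library totals, at -0.15 (adjusted p = 0.771), where 6 and 5 of the 8 were called with capmatinib. *Zdhhc9*, a subunit of a Ras palmitoyltransferase, rose by 1.11 ± 0.047 and 0.91 ± 0.041.

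**Figure D4:**
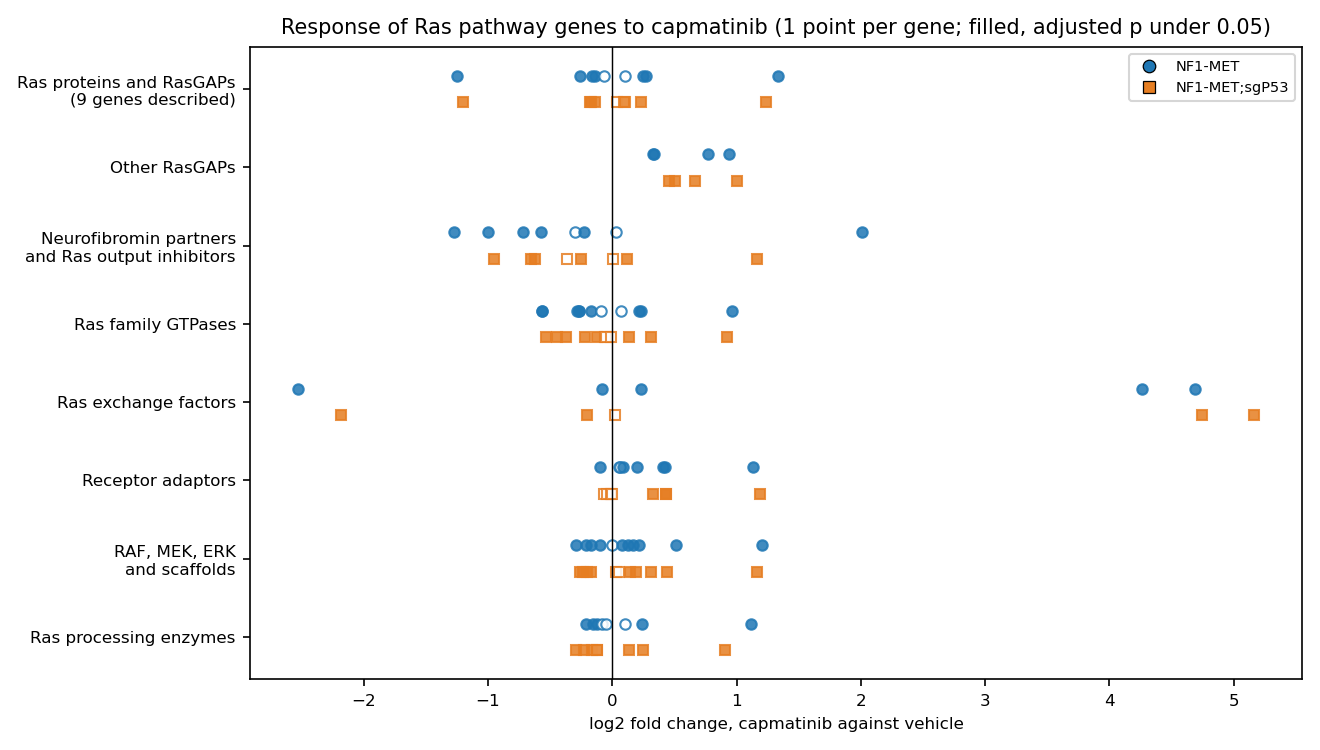
Log2 fold changes with capmatinib (x axis) of the 9 genes and of each gene tested in 7 pathway lists (rows), in NF1-MET (blue circles) and NF1-MET;sgP53 (orange squares), filled where the adjusted p was under 0.05. All 4 other RasGAPs lie right of 0, and most genes listed as neurofibromin partners and Ras output inhibitors lie left of it. The points beyond 4 are *Rasgrp2* and *Rasgrp3*, which stayed under 8 CPM.

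Between the lines, 19 of the 54 list genes were called in vehicle (7 higher and 12 lower) and 7 in capmatinib (3 higher and 4 lower), shares of 35.2% and 13% beside 23.2% and 12.3% of all genes. The response to capmatinib differed between the lines for 10 of the 54 (18.5%, beside 9.71% of all genes), 6 with a higher and 4 with a lower value in NF1-MET;sgP53, or 9 and 1 without *Gm42418* and 2 and 0 with library totals. Of these 10, 4 were among the 8 genes listed as neurofibromin partners and Ras output inhibitors (*Spred1*, *Spred3*, *Spry2* and *Spry4*). Without NF1-MET;sgP53 vehicle replicate 1 the 10 became 6, and the 7 called between the lines in capmatinib became 2 without capmatinib replicate 2 of either line and 4 without capmatinib replicate 1 of NF1-MET;sgP53.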

How the data were processed

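Poly(A) RNA from 8 samples was sequenced from both ends. As the study's methods and the submitters' processing notes say, the authors trimmed reads with Trim Galore 0.4.2, checked them with FastQC 0.11.7, mapped them to mm10 with STAR 2.5.2b and deposited raw counts per gene from STAR, not normalized or filtered. The annotation release and the use of strand are not given in the sources used here. The table had 0 unused sample columns.

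A gene was kept if 2 or more of the 8 libraries reached 10 counts, which removed 0.0396% of counts, and entered a comparison if 2 or more of its libraries were above 0. R 4.3.3 and edgeR 4.0.16 were used: TMM factors within a comparison, the quasi-likelihood F-test (legacy setting) and Benjamini-Hochberg adjustment over all genes tested, at a threshold of 0.05. SEs are the log2 fold change over the root of F. Log2 CPM for likeness had a prior count of 2. Positions and exon lengths came from GENCODE release M21, which holds 50376 of the 50600 identifiers, and promoters from RefSeq. The comparisons were capmatinib against vehicle in each line, line against line in each treatment, and their interaction. The median squared difference between the replicates of a group was 1.54 to 1.78 times that of sampling noise, and no replicate was counted as a duplicate. The member with the fewest counts in a library was *Rasa2* (767). Counting error alone, from the summed counts of each group, gave 33.4% to 80.1% of the squared SE of the members' capmatinib log2 fold changes. The procedure was tested on simulated data.

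The alternatives were DESeq2 1.42.0 size factors, library totals, omission of *Gm42418*, the Wald test of DESeq2, the newer bias-adjusted test of edgeR, a stricter filter or none, a block for replicate number, 1 model over all 8 libraries, and omission of each library in turn, the last in a model over the 4 groups in which a lone library is assumed to vary like the others. Named genes are the 9, *Trp53*, *Met*, those most like *Nf1* and *Rras*, and from each list up to 4 called genes with the largest changes and at least 10 CPM, not all of which are reported here. The members and lists were chosen with earlier results of these data known. Markers and genes said to be named after their values were seen fall outside this rule.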

Additional observations from a re-analysis of the deposited data

Results flagged for a closer look

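Each group had 2 libraries, too few to look for outlying samples. The response to capmatinib differed between the lines, by the test of the interaction, for *Met* and for 10 genes of the pathway lists. Values are the log2 fold change in NF1-MET;sgP53 minus that in NF1-MET, with SE, and the number of the 16 alternatives in which the adjusted p stayed under 0.05. *Met* was at 0.16 ± 0.036 (14 of 16). *Spred1* was at 0.30 ± 0.04 (16 of 16) and *Spry4* at 0.30 ± 0.049 (16 of 16), since both fell less in NF1-MET;sgP53, from vehicle levels that were lower there. *Spry2* was at 0.21 ± 0.047 and *Rap1b* at 0.19 ± 0.041 (15 of 16 each), and *Ptpn11* at -0.17 ± 0.037 (15 of 16). *Rasgrf1* was at 0.32 ± 0.086 and *Rras2* at -0.18 ± 0.048 (10 of 16 each). *Spred3* was at 0.36 ± 0.11 (9 of 16), *Zdhhc9* at -0.22 ± 0.065 (7 of 16) and *Rapgef1* at -0.14 ± 0.043 (4 of 16). All 11 kept their sign in each of the 16 alternatives.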

How the results depend on the processing

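Of 924 values of the 9 genes, *Trp53* and *Met* under the alternatives, 815 kept direction and side of the threshold, 67 lost and 8 gained it, and 34 changed sign. All 68 values of *Rasa1* and *Rras* with capmatinib were kept. Depth bears on the members' precision, since counting error alone gave an SE of 0.0181 (*Rasa1*) to 0.0489 (*Rasa2*) on the log2 scale with capmatinib, against fitted SEs of 0.0314 and 0.0595. The cause of the changes below was not tested. The number of members called was 5 in NF1-MET;sgP53 with library totals and in DESeq2's Wald test, and 4 to 7 when single libraries were left out. Between the lines in vehicle it was 0 with library totals, 1 in DESeq2's Wald test, 1 without the filter, and 0 to 4 when single libraries were left out, against 4.

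With library totals the log2 fold change with capmatinib turned to -0.081 for *Nf1*, -0.0996 for *Ptpn11*, -0.0577 for *Araf* and -0.0147 for *Shoc2* in NF1-MET, and to -0.0201 for *Nf1*, -0.0324 for *Rasa2*, -0.0826 for *Sos1* and -0.00463 for *Lztr1* in NF1-MET;sgP53. Between the lines it turned to 0.032 for *Nf1* and 0.0479 for *Rasal2* in vehicle and to 0.0926 for *Nf1* and 0.0794 for *Rasa1* in capmatinib, and the interaction to 0.0607 for *Nf1*, 0.0295 for *Nras* and 0.0217 for *Map2k1*. *Rasal2* turned to 0.00923 between the lines in vehicle with all 8 libraries in 1 model, and the interaction of *Nf1* to 0.019 without *Gm42418* and 0.00896 without the filter. Leaving out single libraries gave, in vehicle, -0.0735 to 0.0595 for *Nf1* and -0.056 to 0.0743 for *Rasal2*. In capmatinib it gave -0.032 to 0.0652 for *Rasa2*, -0.000643 to 0.0238 for *Nras*, -0.036 to 0.051 for *Rras* and -0.00699 to 0.033 for *Sos1*. For the interaction it gave -0.0829 to 0.0499 for *Nf1*, -0.00697 to 0.141 for *Rasal2*, -0.0263 to 0.0671 for *Hras* and -0.011 to 0.0728 for *Trp53*.

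Over all genes, the 3355 calls between the lines in vehicle became 2023 with library totals and 1915 in DESeq2's Wald test. In capmatinib the 1778 calls became 666 and 848, 1070 without the filter and 1079 without NF1-MET capmatinib replicate 2, and the library totals split was 537 higher and 129 lower, against 860 and 918. The 1407 interaction calls, 558 higher and 849 lower, became 315 (192 and 123) with library totals and 827 in DESeq2's test, and without *Gm42418* 873 were higher and 612 lower. The list genes called were 11 with library totals in vehicle (against 19), 1 with library totals, 0 in DESeq2's test and 4 without the filter in capmatinib (against 7), and 2 with library totals and 5 in DESeq2's test for the interaction (against 10).

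Same-numbered replicates showed little sign of pairing, which 2 libraries in each group cannot exclude. The correlations of their deviations were 0.0358, 0.102, 0.0422 and -0.0536 in the 4 comparisons of groups. With the replicate number as a block the members called were 8, 6, 4 and 0 in these and 0 for the interaction, and the genes called 10141, 9866, 3994, 1777 and 1524. *Nf1* passed in NF1-MET (adjusted p = 0.039) and did not in NF1-MET;sgP53 (adjusted p = 0.0597), and the block changed no other call among the members, *Trp53* and *Met*.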
